A study of Mus musculus with 17 samples.

Results

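The regions described here are the 64273 stretches of the mouse genome that carried an enriched interval (an island) of at least 1 of 4 histone marks in CD8 thymocytes lacking Tcf1 and Lef1, called DKO CD8 below. They were obtained by joining all islands of the DKO CD8 libraries for H3K4me3, H3K27ac, H3K9ac and H3K27me3 that shared 1 bp or more, and each was assigned to 1 of the 15 possible combinations of marks. Islands of all 12 histone libraries of the series, joined in the same way, gave 164530 regions. DKO CD8 cells came from Tcf1-/-Lef1-/- mice in which CD4-Cre had removed both factors, and were sorted from the thymus as mature TCRβ-high, CD69-negative, CD24-negative, CD8-positive cells. The comparison groups were wild-type CD8 thymocytes with the same sort (WT CD8) and wild-type CD4 thymocytes (WT CD4), whose phenotype label names CD8 although title and source say CD4. Tcf1 binding had been mapped in TCRβ-high CD8 cells of the wild-type spleen, with Tcf1-/- cells as the control. The labels state neither age, strain nor number of animals, nor whether animals were pooled. Genes at the regions were not analysed here, so neither the cell type nor the deletion was checked on marker genes.

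H3K4me3 marks promoters, where it is laid down around transcription start sites. H3K27ac and H3K9ac are acetyl marks of active promoters, and H3K27ac also of active enhancers, which carry little or no H3K4me3. H3K27me3 is deposited by Polycomb repressive complex and covers silenced genes, often as wide domains. Promoters with both H3K4me3 and H3K27me3 are called bivalent and are known from developmental genes held silent but ready for use. CD4-Cre acts from the stage at which thymocytes carry both CD4 and CD8, so deletion precedes the choice between the CD4 and CD8 lineages.

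Each mark had 1 library per group. Differences between groups therefore rest on single libraries and were not tested, and intervals in parentheses are exact 95% Clopper-Pearson intervals for counting error only. The DKO CD8 lists held 611691 H3K4me3 reads in 23411 islands, 1959297 H3K27ac reads in 29636 islands, 281383 H3K9ac reads in 6516 islands and 3070897 H3K27me3 reads in 23933 islands. H3K9ac was thus the shallowest list, and a region without an H3K9ac island may hold H3K9ac below the calling level. At 31 places very dense H3K27me3 islands coincided with very dense islands of another mark in some group. They made up 31 DKO CD8 regions, but held 7.64% of H3K4me3, 5.77% of H3K9ac, 2.52% of H3K27me3 and 1.36% of H3K27ac island reads.

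A single mark was the rule. Of the 64273 regions, 51521 (80.2%, 79.8 to 80.5) carried 1 mark, 7763 (12.1%) carried 2, 4476 (6.96%) carried 3 and 513 (0.798%) carried all 4. The most frequent combinations were H3K27me3 alone (18556 regions, 28.9%), H3K27ac alone (18280, 28.4%) and H3K4me3 alone (13472, 21.0%). The fourth was the full set of active marks, H3K4me3 with H3K27ac and H3K9ac but no H3K27me3, at 3572 regions (5.56%). H3K4me3 with H3K27ac followed with 3122, H3K27ac with H3K27me3 with 2380 and H3K4me3 with H3K27me3, called the bivalent pattern here, with 1316. H3K9ac alone marked 1213 regions. H3K4me3 with H3K27ac and H3K27me3 marked 707 regions, and H3K27ac with H3K9ac marked 585. The remaining 4 combinations all included H3K9ac and were rare, from 186 regions with H3K27me3 down to 92 with H3K27ac and H3K27me3. In summed width the order differed, because H3K27me3 alone covered 64.8 Mb (39.3% of 165 Mb) and H3K4me3 alone 11.3 Mb (6.84%).

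**Figure D1:**
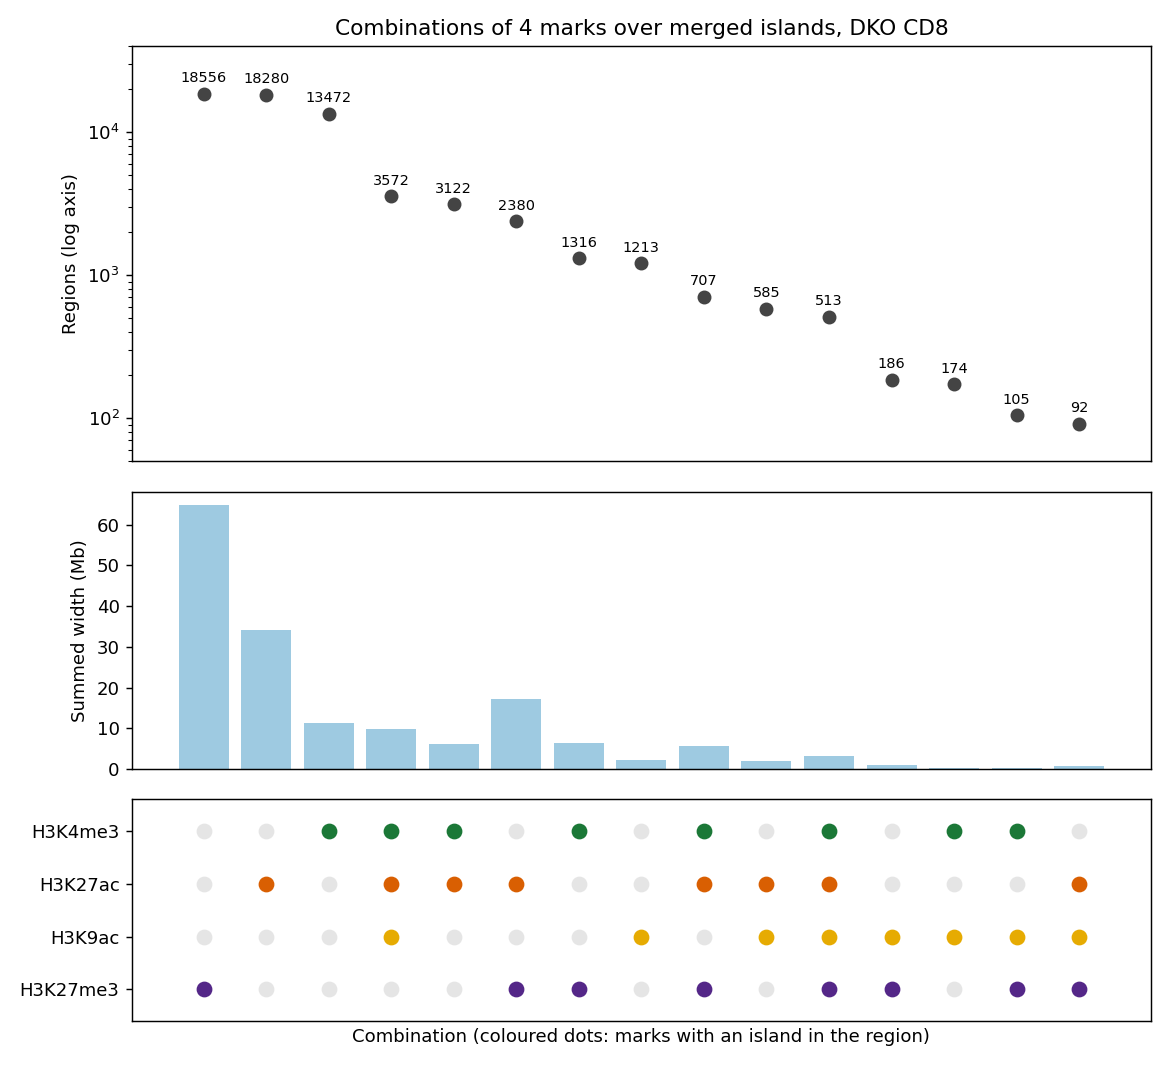
Number of DKO CD8 regions (top, log axis), summed region width in Mb (middle) and the marks present (bottom, coloured dots) for the 15 combinations, ordered by number. The 3 leftmost combinations are single marks with 18556, 18280 and 13472 regions, and the full set of active marks follows with 3572.

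Joining through overlapping islands can place marks in 1 region without their lying on the same bases. Counted per base, 18.0 Mb (10.9% of the marked sequence) lay under 2 or more marks. H3K27ac with H3K27me3 shared 4.66 Mb, the full active set 3.90 Mb, H3K4me3 with H3K27ac 3.17 Mb, H3K4me3 with H3K27me3 1.46 Mb, and all 4 marks 0.515 Mb. The overlap of H3K27ac and H3K27me3, which modify the same lysine and so cannot sit on the same histone tail, was the widest of these in DKO CD8.

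The marks differed in how often they stood alone. H3K27me3 islands had no partner in 77.5% of cases (77.0 to 78.1), H3K27ac islands in 61.7% and H3K4me3 islands in 57.5%, against 18.6% (17.7 to 19.6) for H3K9ac. Of the 6516 H3K9ac islands, 73.9% shared bases with an H3K27ac island and 67.0% with an H3K4me3 island. H3K4me3 islands overlapped H3K27ac in 34.7%, H3K9ac in 19.4% and H3K27me3 in 11.5% of cases.

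Islands with more reads had partners more often. Among H3K4me3 islands, 18.3% (17.3 to 19.3) of the lowest quartile by reads (10 to 14 reads) lay in a region with another mark, and 82.3% (81.3 to 83.3) of the highest quartile (26 reads and more). The full active set held 2.49% of the lowest H3K4me3 quartile and 46.2% of the highest. For H3K27ac the shares with a partner ran from 18.6% to 71.1%, for H3K9ac from 71.0% to 96.8% and for H3K27me3 from 14.4% to 36.2%. A single mark is therefore most frequent where islands are near the lowest number of reads called. Which of these single marks are islands without enrichment was not tested.

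**Figure D2:**
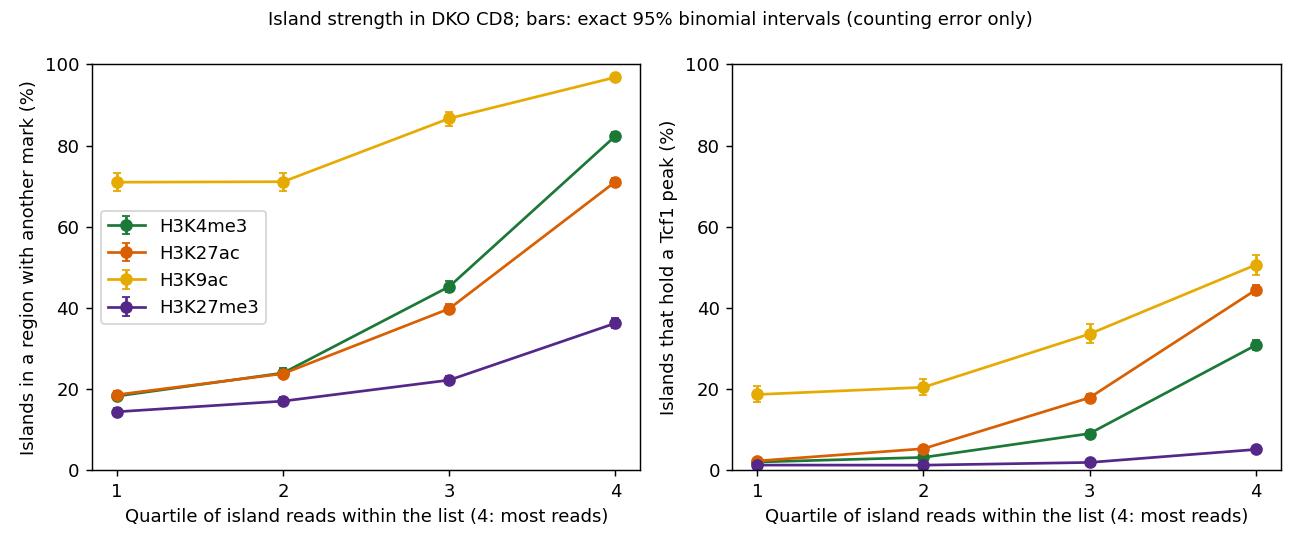
Share of DKO CD8 islands in a region with another mark (left) and share that hold a splenic Tcf1 peak (right), in percent, by quartile of island reads within each list; bars are exact 95% binomial intervals for counting error. H3K4me3 goes from 18.3% to 82.3% on the left and from 2.03% to 30.8% on the right, while H3K27me3 reaches 36.2% and 5.11%.

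Read density within a mark followed the combination. H3K27ac had a median of 65.0 reads per kb of its own islands in the full active set (quartiles 47.2 and 88.5), 60.2 in 4-mark regions, 42.2 with H3K9ac, 36.7 with H3K4me3, 19.4 alone and 17.9 with H3K27me3. The quartiles of H3K27ac alone (15.5 and 26.5) lay wholly below those of the full active set. H3K4me3 reached 35.0 reads per kb in the full active set and 29.0 with H3K27ac, but 21.7 both alone and in the bivalent pattern. H3K9ac went from 15.6 alone to 26.2 in the full active set. H3K27me3 varied least, from 22.2 alone to 30.8 with H3K4me3 and H3K27ac, and its quartiles overlapped in all 8 combinations that contain it. These densities come from called islands, so each has a floor set by the calling, and they are compared within a mark only.

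**Figure D3:**
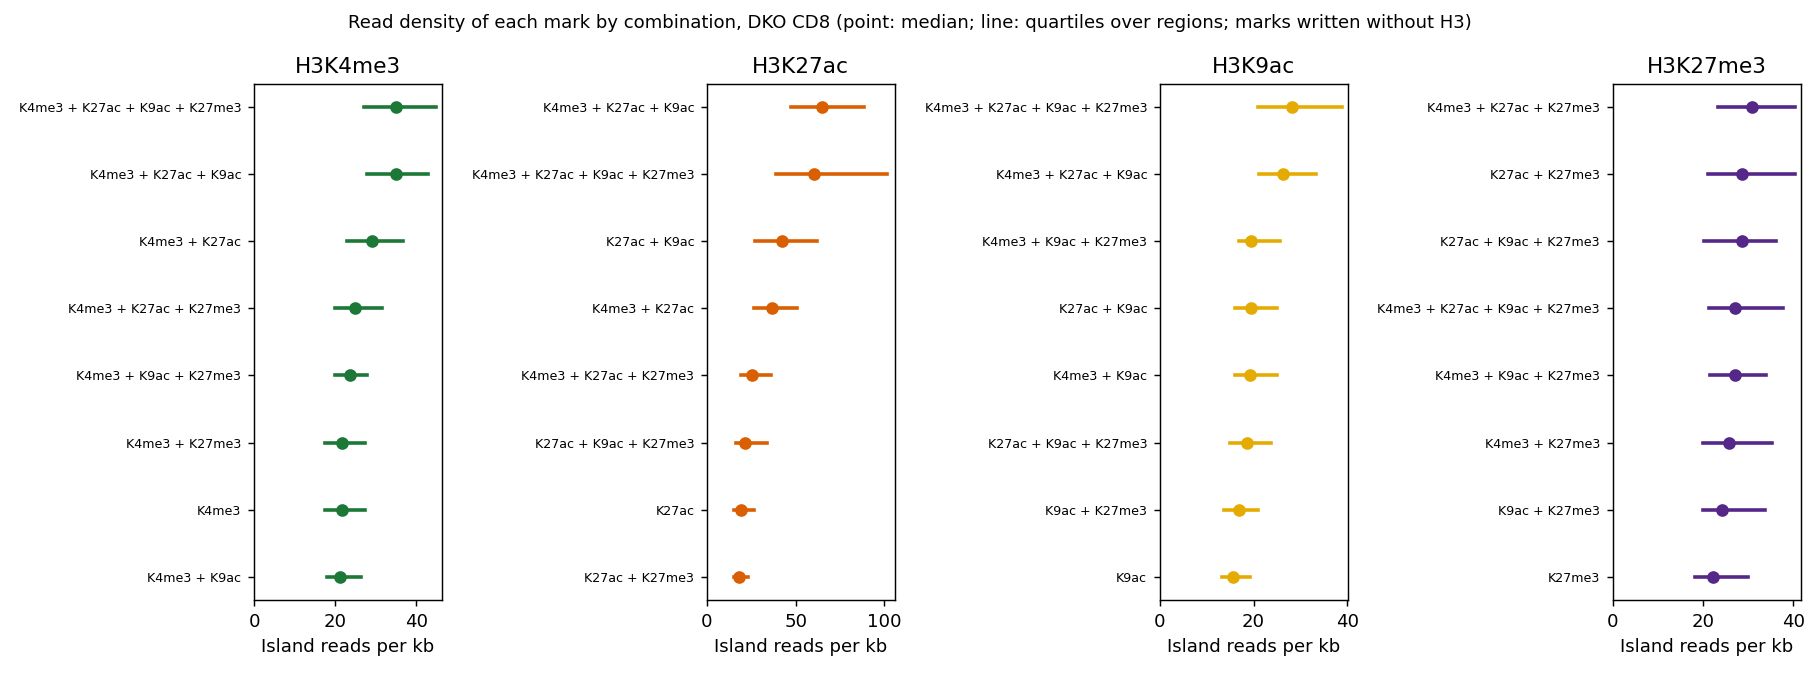
Island reads per kb of each mark (1 panel per mark, each with its own axis from 0) by combination in DKO CD8; points are medians and lines the quartiles over regions. H3K27ac has the widest range, from 17.9 with H3K27me3 to 65.0 in the full active set, and H3K27me3 the narrowest.

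The 3572 regions of the full active set had nested marks. Their median width was 2200 bp, against 1600 bp for all DKO CD8 regions, with H3K4me3 over 1000 bp, H3K9ac over 1400 bp and H3K27ac over 2000 bp. The narrower mark sat inside the wider one: where each mark had 1 island, the H3K4me3 island lay wholly within the H3K27ac island in 87.3% of regions and within the H3K9ac island in 61.7%, and H3K9ac within H3K27ac in 70.3%. Centres of any pair of the marks were a median of 200 bp apart, which is 1 step of the calling grid. Although they made up 5.56% of regions, they held 55.1% of all H3K9ac island reads, 30.6% of H3K27ac and 24.4% of H3K4me3. Over these regions reads per kb of H3K27ac and H3K9ac ranked together (Spearman's rho 0.51), more than H3K4me3 with either (0.33 with H3K27ac and 0.35 with H3K9ac). These rho values are across regions of the same libraries, which are not independent.

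The densest region of the full active set was chromosome 12, 52929401 to 52931600 (mm9 build, as for all positions), with 85 H3K4me3, 425 H3K27ac and 120 H3K9ac reads over 2.2 kb. Chromosome 1, 43989801 to 43991600, followed with 68, 363 and 80 reads for the same marks, and chromosome 2, 39081001 to 39082000, with 50, 175 and 56. Each of these 3 regions had the same combination in both wild-type groups, and the latter pair each held a Tcf1 peak. The widest region of this set, chromosome 14, 54777601 to 54797200, was different: H3K27ac covered 19400 bp and H3K9ac 17400 bp of its 19.6 kb, while H3K4me3 covered 1000 bp with 31 reads. That place had H3K27ac alone in WT CD8 and H3K27ac with H3K9ac in WT CD4.

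As background for the wild-type states below, over all 64273 DKO CD8 regions WT CD8 had an H3K4me3 island in 19%, H3K27ac in 26.4%, H3K9ac in 8.61% and H3K27me3 in 19.7%. WT CD4 had H3K4me3 in 19.9%, H3K27ac in 29.6%, H3K9ac in 22.2% and H3K27me3 in 27.2%. The full active set was present in 4.72% of all regions in WT CD8 and in 10.9% in WT CD4.

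Regions with H3K27ac and 1 other active mark had lower H3K27ac reads than the full active set. The 3122 with H3K4me3 and H3K27ac had a median of 23 H3K4me3 and 59 H3K27ac reads, against 38 and 139 in the full active set. In WT CD4, 75.6% of them (74.1 to 77.1) had an H3K9ac island, and 65.6% were of the full active set. In WT CD8, whose H3K9ac list held 248234 reads, 25.1% had an H3K9ac island. The 3 densest, chromosome 3, 132346401 to 132347600, chromosome 17, 15146401 to 15147600, and chromosome 15, 57723201 to 57724600, had 140, 125 and 142 H3K27ac reads, each held a Tcf1 peak and each was of the full active set in both wild types. The 585 with H3K27ac and H3K9ac but no H3K4me3 had a median H3K27ac of 98 reads. In 40.2% of them WT CD4 had all 3 active marks. Of this kind was chromosome 17, 71874201 to 71877400, with 435 H3K27ac and 68 H3K9ac reads in DKO CD8 and the full active set in both wild types. Chromosome 2, 32346801 to 32353600, with 837 H3K27ac and 74 H3K9ac reads and 2 Tcf1 peaks, had the same pair of marks in all 3 groups.

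H3K27ac alone, a pattern known from active enhancers, was frequent but mostly weak, with a median of 27 reads (quartiles 20 and 44) over 1600 bp. Of these 18280 regions, 23.6% (23.0 to 24.2) had an H3K27ac island in WT CD8 and 46.8% (46.1 to 47.6) in WT CD4. The WT CD8 share was below the 26.4% of all regions, and the WT CD4 share above the 29.6%. The widest, chromosome 6, 47600801 to 47637200, held 2702 reads over 36.4 kb and 6 Tcf1 peaks. There WT CD4 had H3K27ac with H3K9ac, and WT CD8 had H3K4me3, H3K27ac and H3K27me3. The densest was chromosome 16, 45353001 to 45353400, with 93 reads over 0.4 kb.

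H3K4me3 alone had a median of 15 reads over 800 bp, against 38 reads over 1000 bp for the same mark in the full active set. Of the 13472 regions, 76.9% had no island of any mark in WT CD8 and 86.4% none in WT CD4, where 55.6% and 43.5% of all DKO CD8 regions had none. An H3K4me3 island was present in 8.74% of them in WT CD8 and 3.42% in WT CD4, against 19% and 19.9% of all regions. They nevertheless held 42.5% of the H3K4me3 island reads, with 5 high-signal places contributing 2.21%. The densest outside the high-signal places was chromosome 9, 35112601 to 35113400, with 2865 reads in 0.8 kb and no island in either wild type. Its 3581 reads per kb stood far from the 1313 of the next densest and the median of 21.7. A high-signal place needs a very dense H3K27me3 island, so that filter cannot remove places dense in H3K4me3 only. Sequence repeats were not analysed at this position. The widest, chromosome 7, 67002201 to 67047600, had 3103 reads over 45.4 kb and carried all 4 marks in WT CD8 and H3K9ac alone in WT CD4. H3K9ac alone had a median of 28 reads, against 37 for that mark in the full active set, and no island in 70.5% of WT CD8 and 79.1% of WT CD4 places.

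The bivalent pattern, H3K4me3 and H3K27me3 without an island of an acetyl mark, comprised 1316 regions with a median width of 2900 bp. The name refers to the called marks only, because promoters were not identified here. The H3K4me3 island was short (800 bp) and lay wholly inside the H3K27me3 island in 72.1% of regions with 1 island each. Over all of them 88.3% of the H3K4me3 sequence was also under H3K27me3, and 19.9% of the H3K27me3 sequence under H3K4me3. Median reads were 17 for H3K4me3 and 60 for H3K27me3, against 15 and 48 where each mark was alone. The densities of these marks ranked together only weakly (rho 0.21 over 1314 regions outside the high-signal places). In WT CD8 55.4% and in WT CD4 52.7% of these regions had H3K27me3, against 19.7% and 27.2% of all regions. H3K4me3 was called in 26.1% and 19.8%, the latter no more than the 19.9% of all regions. The complete pattern was found again in 79 regions of WT CD8 (6.0%), 95 of WT CD4 (7.22%) and 11 in both. The most frequent other state in WT CD4 was H3K27me3 alone (27.2%, against 17% of all regions), after no island (39.1%).

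The densest bivalent region was chromosome 3, 8244601 to 8246800, with 333 H3K4me3 and 905 H3K27me3 reads and H3K27me3 alone in both wild types. Chromosome 11, 53953001 to 53955000, had 228 and 627 reads, with the bivalent pattern in WT CD4 as well and H3K27ac with H3K27me3 in WT CD8. The widest, chromosome 3, 96121201 to 96216200, was a 95 kb H3K27me3 domain of 5537 reads with 28 H3K4me3 reads over 1400 bp. Such a region counts as bivalent through 1 weak island in a wide domain.

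H3K27ac with H3K27me3 formed the widest common combination, with a median of 5000 bp over 2380 regions. H3K27ac was at its lowest density there (17.9 reads per kb), and H3K27me3 had a median of 114 reads. The H3K27ac island lay wholly inside the H3K27me3 island in 62.1% of regions with 1 of each, with centres a median of 900 bp apart. In WT CD4 79.7% of these regions had H3K27me3 and 44.6% H3K27ac, and in WT CD8 59.8% and 32.1%. The H3K27me3 shares were far above those of all regions (27.2% and 19.7%), and the H3K27ac share of WT CD8 was near its 26.4%. An example is chromosome 4, 100984401 to 100987600, with 76 H3K27ac and 470 H3K27me3 reads. In the 707 regions that also had H3K4me3, the H3K4me3 island shared bases with H3K27ac in 84.4% and with H3K27me3 in 93.6%. The joining by overlap required at least 1 of these in each region. Across the 693 of these regions outside the high-signal places, the densities of H3K27ac and H3K27me3 ranked in opposite order, though weakly (rho -0.18).

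All 4 marks met in 513 regions with a median width of 3800 bp. Their active marks had densities near those of the full active set, with medians of 35.0 reads per kb for H3K4me3, 60.2 for H3K27ac and 28.1 for H3K9ac. H3K27me3 covered 74.8% of the centres of the H3K4me3 islands, against 91.6% in the bivalent pattern. The joining required H3K4me3 and H3K27me3 to share bases in every bivalent region, but in 4-mark regions H3K27me3 could join through an acetyl mark. The difference between these shares is therefore partly set by the joining. In the 4-mark regions H3K27me3 overlapped H3K27ac in 98.4% and H3K4me3 in 90.4%. Because regions were joined by overlap, it had to share bases with at least 1 active mark in each, so these overlaps are partly fixed by the joining. In WT CD8 246 of the 513 (48.0%) had the full active set without H3K27me3, and in WT CD4 268 (52.2%). The same 4 marks were called in 55 (10.7%) and 177 (34.5%).

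**Figure D4:**
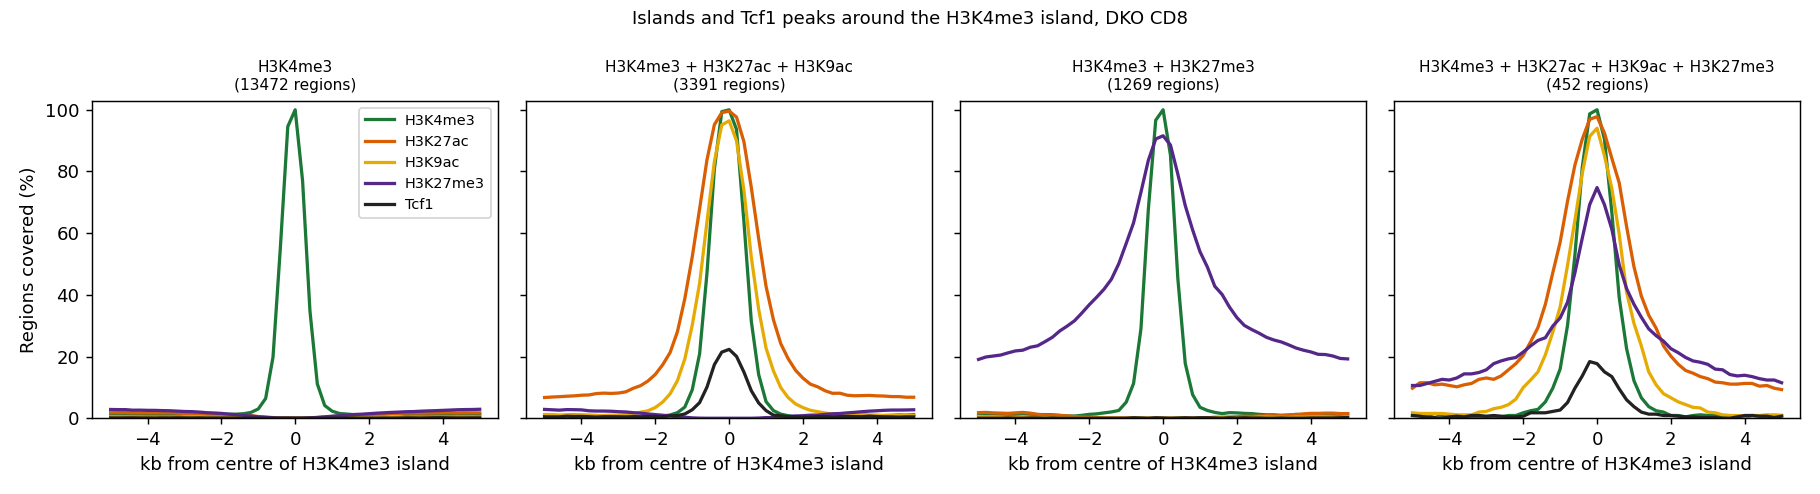
Percent of DKO CD8 regions covered by an island of each mark, or by a splenic Tcf1 peak, at each distance in kb from the centre of the H3K4me3 island, for regions with 1 H3K4me3 island. H3K27me3 is at 91.6% of centres in the bivalent pattern and spreads beyond the 5 kb shown, while at 4-mark regions it is at 74.8% of centres and H3K27ac at 97.8%. The joining required H3K27me3 to overlap the H3K4me3 island in the bivalent pattern, but not in 4-mark regions.

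The 4-mark regions differed by their state in the wild types. In 281 (54.8%, 50.4 to 59.1) neither wild type had an H3K27me3 island, in 108 both had, and in the rest 1 of the wild types had. The 108 were wide (median 8400 bp) with 245 H3K27me3 reads over 7300 bp and 105 H3K27ac reads. The 281 were narrower (3200 bp), with 34 H3K27me3 reads over 1400 bp and 237 H3K27ac reads, more than the 139 of the full active set. Their H3K27me3 islands had few reads: 84.4% (79.6 to 88.4) of them had no more than the list's median of 52 reads. This share was 44.7% in the bivalent pattern and 54.7% with H3K27me3 alone. Per kb, H3K27me3 in the 281 had a median of 24.3 reads, against 22.2 for H3K27me3 alone, whose median length was 2400 bp. High H3K27ac reads and short H3K27me3 islands of few reads thus came together in these regions. The part of the H3K27ac signal in those calls was not tested. Of the 281, 24 (8.54%, 5.55 to 12.4) lay on chromosome X, against 5.85% of all 4-mark regions, which include the 281, and 3.72% of all regions. Chromosome 11, 52077201 to 52101400, is among the 3 of these with most H3K27me3 reads and at least 50 reads of each mark, a choice made after the values were seen. It had 3238 H3K27ac, 1034 H3K9ac, 422 H3K4me3 and 145 H3K27me3 reads over 24.2 kb, a Tcf1 peak, and the full active set in both wild types. Chromosome 8, 15023801 to 15032000, had 156 H3K27me3 and 298 H3K27ac reads, and again the full active set in both.

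Seen from the other side, 342 of the 3096 regions with the full active set in WT CD8 (11.0%, 9.96 to 12.2) had an H3K27me3 island in DKO CD8, and 130 (4.2%, 3.52 to 4.97) had one in WT CD4. Over all WT CD8 regions the shares were 15.3% in DKO CD8 and 18.1% in WT CD4. Of the 7129 such regions of WT CD4, 7.36% (6.77 to 8.0) had H3K27me3 in DKO CD8 and 1.89% in WT CD8, against 19.9% and 15.9% of all WT CD4 regions. In the opposite direction, 1.48% of the DKO CD8 full active set had H3K27me3 in WT CD8 and 2.24% in WT CD4. The DKO CD8 list covered the least sequence of the H3K27me3 lists (96.1 Mb, against 121 Mb in WT CD8 and 142 Mb in WT CD4). With only H3K27me3 islands above their list's median, a step added after these values were seen, the shares fell to 3.97% (3.31 to 4.72) in DKO CD8 and 2.42% (1.91 to 3.03) in WT CD4 for the WT CD8 regions. For the WT CD4 regions they became 2.57% in DKO CD8 and 0.996% in WT CD8. The order of the groups was the same, at lower shares. With 1 library per group, a difference between libraries and one between genotypes cannot be told apart.

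Tcf1 peaks were read as an independent measure, with the limit that they come from wild-type splenic cells, which still have the factor. Of 7807 peaks, 6073 (77.8%, 76.9 to 78.7) lay in a DKO CD8 region. By their own position, 32.6% of peaks touched H3K27ac alone, 21.5% the full active set and 10.8% H3K4me3 with H3K27ac, while 0.269% touched H3K4me3 alone and 0.0640% H3K4me3 with H3K27me3.

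Of all DKO CD8 regions, 8.4% held a peak. The share was 47.1% (45.4 to 48.7) in the full active set, 41.7% (37.4 to 46.1) in 4-mark regions, 34.9% (31.0 to 38.9) with H3K27ac and H3K9ac, 26.7% (25.2 to 28.3) with H3K4me3 and H3K27ac, and 10.6% (10.1 to 11.0) with H3K27ac alone. With H3K27ac, H3K9ac and H3K27me3 it was 20.7% (12.9 to 30.4), and with H3K4me3, H3K27ac and H3K27me3 19.5% (16.7 to 22.6). H3K27ac with H3K27me3 was at 8.7% (7.6 to 9.9), near the share of all regions. The share was 1.22% in the bivalent pattern, 0.663% with H3K27me3 alone and 0.148% with H3K4me3 alone. None of the 186 regions with H3K9ac and H3K27me3 held a peak, and none of the 105 with H3K4me3, H3K9ac and H3K27me3. A limit of 3 counts allows shares of up to 1.61% and 2.86%, and the exact 95% upper bounds are 1.96% and 3.45%. Every combination above 2% contained H3K27ac.

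Region width moves with this share, so it was also read at a fixed width. The share moves with H3K27ac reads as well, which were not held fixed. H3K27ac islands held a peak in 2.29% of the lowest quartile by reads and 44.4% of the highest. Median H3K27ac reads were 27 in H3K27ac alone, 59 with H3K4me3 and 139 in the full active set. Among regions from 2000 to under 4000 bp, 12.2% held a peak, with 47.8% (45.5 to 50.1) in the full active set, 34.7% in 4-mark regions, 30.2% with H3K4me3 and H3K27ac, 29.8% with H3K27ac and H3K9ac, 14.9% with H3K27ac alone, 5.39% with H3K27ac and H3K27me3 and 0.356% with H3K27me3 alone. From 1000 to under 2000 bp, where 6.74% of regions held a peak, the full active set was at 40.2% and H3K4me3 alone at 0.139%. Within the full active set, 99.8% of the 1936 peaks lay on H3K27ac islands, 91.1% on H3K9ac and 86.8% on H3K4me3. Among regions of H3K27ac alone, 1.35% (1.11 to 1.63) of those with no island in WT CD4 held a peak, against 17.9% (16.9 to 18.9) of those with H3K27ac alone in WT CD4. Split by WT CD8 in the same way, the shares were 4.74% (4.37 to 5.12) and 28.3% (26.8 to 29.9). The groups compared also differed in width, with medians of 1400 and 1800 bp by WT CD4 and 1400 and 2200 bp by WT CD8. Their H3K27ac reads were not compared. Of the 281 4-mark regions without wild-type H3K27me3, 47.3% (41.4 to 53.3) held a peak, and of the 108 with H3K27me3 in both wild types 30.6% (22.1 to 40.2).

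**Figure D5:**
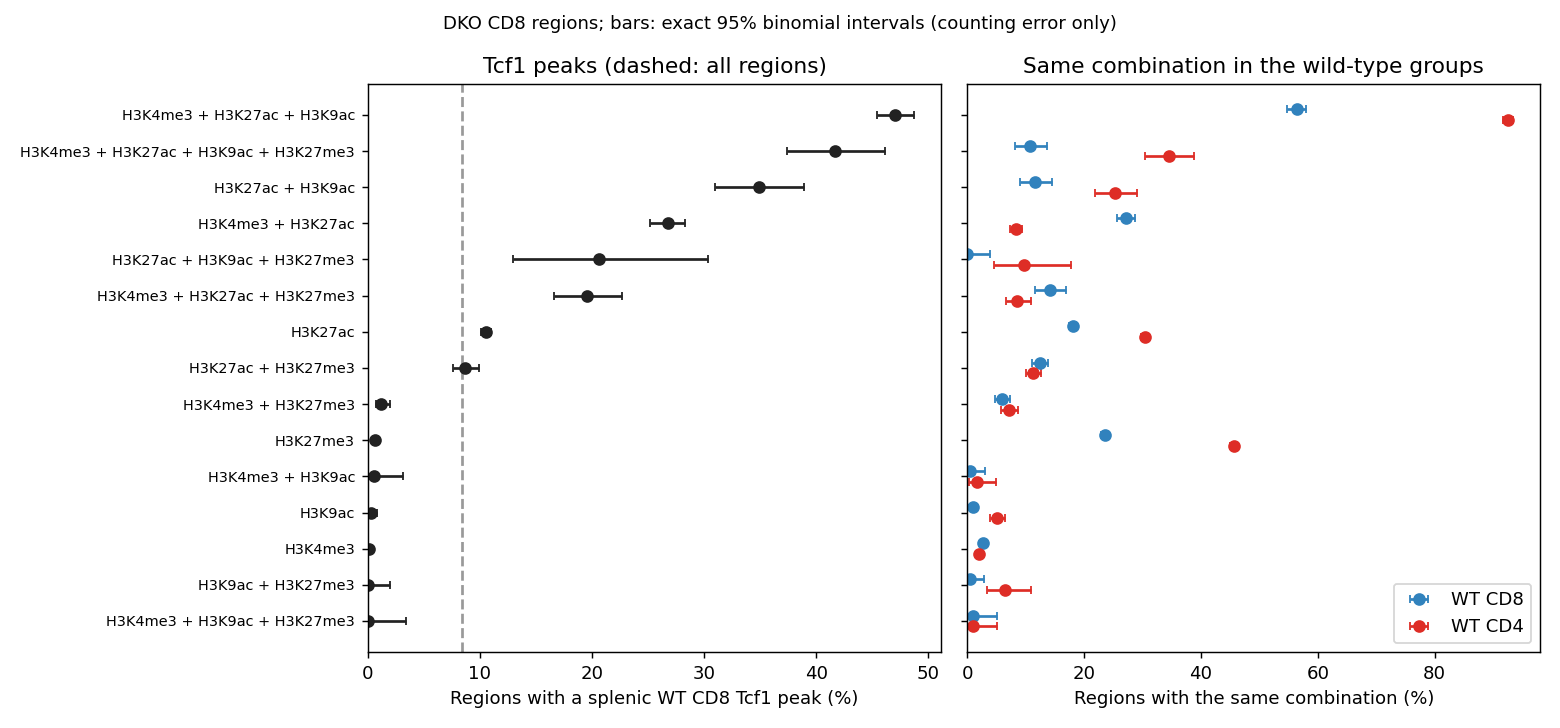
Percent of DKO CD8 regions of each combination that hold a splenic Tcf1 peak (left, dashed line at 8.4% for all regions) and percent with the same combination in WT CD8 or WT CD4 (right); bars are exact 95% binomial intervals for counting error. The full active set is highest in both, at 47.1% with a peak and 92.6% with the same combination in WT CD4.

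The full active set was also the combination most often found again in the wild types. Of all regions, 17.9% had the same combination in WT CD8, 29.1% in WT CD4 and 10.6% in both. In the full active set these shares were 56.4% (54.7 to 58.0), 92.6% (91.7 to 93.4) and 54.6%, and 1 of the 3572 regions had no island in either wild type. Most of the rest in WT CD8 lacked an H3K9ac island (24.9% had H3K4me3 with H3K27ac, against 4.25% of all regions). H3K27me3 alone followed in WT CD4 with 45.6% and was at 23.6% in WT CD8, and H3K27ac alone was at 30.4% and 18.1%. H3K4me3 with H3K27ac went the other way, with 8.36% in WT CD4 and 27.1% in WT CD8. H3K4me3 alone was found again in 2.13% of WT CD4 and 2.72% of WT CD8 places, and in 19 of 13472 (0.141%) in both. H3K27ac with H3K9ac and H3K27me3 was found again in none of 92 regions of WT CD8, which allows up to 3.26% by the limit of 3 counts, with an exact 95% upper bound of 3.93%. H3K9ac had 32651 islands in WT CD4, 9860 in WT CD8 and 6516 in DKO CD8, and every share that includes H3K9ac moves with these counts.

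Side by side, 3572 DKO CD8 regions had the full active set, 3096 of WT CD8 and 7129 of WT CD4. H3K27ac with H3K27me3 numbered 2380, 9748 and 1140, and with H3K4me3 added 707, 6111 and 552, so that WT CD8 stood apart from the other groups in these. The bivalent pattern numbered 1316, 1927 and 2421. Tcf1 peaks lay in 41.7% of the 4-mark regions of DKO CD8, 4.17% of the 792 of WT CD8 and 23.0% of the 1209 of WT CD4. Over all regions of these groups the shares were 8.4%, 4.62% and 6.9%, so the 4-mark share of WT CD8 was at that of all its regions. The groups differed in list depth and covered length, so these counts are values of the libraries.

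Combinations also differed in place. Chromosome X held 3.72% of all regions while its span from first to last island was 6.34% of the genome's. It held 1.2% (0.873 to 1.62) of the full active set and 1.8% of H3K27ac alone, but 7.29% (6.86 to 7.74) of H3K4me3 alone, 6.0% of the bivalent pattern, 5.85% of 4-mark regions and 12.6% (8.10 to 18.5) of H3K4me3 with H3K9ac. In the wild types chromosome X held 6.19% of the 4-mark regions of WT CD8 and 0.827% of those of WT CD4. Over all regions of these groups it held 4.96% and 1.84%. The sex of the animals was not analysed here. Per Mb, the DKO CD8 regions of H3K4me3 alone varied least over the autosomes (coefficient of variation 12.8%). The values were 24.1% for the full active set, 26.1% for the bivalent pattern and 32.0% for H3K4me3 with H3K27ac. Chromosome 11 was densest in the full active set, with 2.61 regions per Mb, and chromosome 3 sparsest with 1.03. H3K4me3 alone had 6.71 per Mb on chromosome 7 and 4.15 on chromosome 19.

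Neighbours differed in the same way. H3K4me3 alone lay a median of 498 kb from the nearest region of the full active set, and H3K27ac alone 112 kb, H3K27ac with H3K9ac 70.2 kb and the bivalent pattern 328 kb. Over all regions this median was 186 kb. Of all regions, 4.93% lay within 10 kb of another region of the full active set. This was 11.8% for H3K27ac with H3K9ac and 8.39% for H3K27ac alone, but 2.02% for H3K4me3 alone and 2.2% for the bivalent pattern. The nearest region to a bivalent one carried H3K27me3 alone in 41.7% of cases, against 30% for all regions. For the full active set it carried H3K27ac alone in 40.9%, against 29% for all regions. The nearest region of any kind lay a median of 8.2 kb away.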

How the data were processed

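Each of 3 thymocyte groups had 1 ChIP-seq library for each of 4 marks. The deposited island lists give the authors' read count per island, a whole number without normalization. Tools listed in the submitters' processing notes are SICER 1.1, MACS 1.4.2, Bowtie2 2.2.5 and FastQC, without their roles, and the build is mm9. Islands lie on a 200 bp grid, and no source used here gives the calling thresholds. Each deposited Tcf1 peak has a score from the authors, used here only to keep the higher-scoring peaks in 1 alternative. Islands of a group sharing at least 1 bp were joined with Python 3.11.15, pandas 2.3.3 and numpy 2.4.6, and touching islands were kept apart. A region of another group was matched by any shared bp. Intervals used SciPy 1.17.1. Regions and combinations equalled those of bedtools 2.31.1 for all 248181 regions of 3 groups, and all 6000 simulated regions were recovered.

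A high-signal place is a stretch where an H3K27me3 island among the densest 0.1% of its list overlaps one of the densest 0.1% of another mark. Named regions were, per combination, the 3 with most reads per kb among those with at least 50 reads of each mark, at most 20 kb wide and outside such places, and the widest. Some of these are given, and none on chromosome 18. Members, lists and alternatives were chosen with earlier results of these data known. Because the available gene annotation is GRCm38.p6 and not mm9, the planned gene lists and cell type markers were not run, and no genome sequence is printed. The 3 inputs were not analysed here.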

Additional observations from a re-analysis of the deposited data

How the results depend on the processing

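Of 71 values recomputed under other settings for 11 results, 42 stayed near the value reported and 29 moved. With islands above their list's median reads, 30607 regions were left, of which 75.7% had 1 mark, 122 all 4 marks, 2233 the full active set, 456 the bivalent pattern and 7650 H3K27ac alone. The full active set then held a Tcf1 peak in 54.2%, and the same combination was found in 26.6% of WT CD8 and 41.4% of WT CD4. With each list trimmed to the shortest covered length of its group, 18412 regions were left, of which 70.4% had 1 mark, 42 all 4 marks, 128 the bivalent pattern and 960 H3K27ac alone. The Tcf1 share was then 51.7% and the same combination was found in 13.5% of WT CD8 and 21.7% of WT CD4. Both settings remove islands by construction. The share with 1 mark was 77.4% with gaps of up to 1000 bp joined, 80.9% when 50% of the shorter island had to be shared, and 81.3% without H3K9ac. Joining gaps gave the same combination in 17.2% of WT CD8 and 26.8% of WT CD4. With Tcf1 peaks above the median score, 26.1% of the full active set held one.

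For the WT CD8 regions of the full active set, the share with H3K27me3 in DKO CD8 was 3.97% with H3K27me3 islands above their list's median, 4.83% with all marks so limited and 2.37% with trimmed lists. In WT CD4 these were 2.42%, 2.44% and 1.55%. The alternatives for these H3K27me3 shares were chosen after seeing the data. In each of them the DKO CD8 share was the higher. With trimmed lists the intervals overlapped (1.63 to 3.33 in DKO CD8 and 0.965 to 2.37 in WT CD4). Trimming made covered length equal within a group, not between groups. No paired analysis was possible because each mark had 1 library per group and the labels carry no replicate numbers. A missing island does not show that a mark is absent, which holds for all 4 marks.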

Other observations

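The widest regions of several combinations were long stretches of H3K27me3, some of them with a small island of an active mark. On chromosome 11, 96087201 to 96187400, H3K27me3 covered all 100.2 kb with 5304 reads, and 1 H3K9ac island of 3000 bp held 35 reads. Both wild types had H3K4me3, H3K27ac and H3K27me3 there. On chromosome 5, 139963401 to 140048800, an 85.4 kb domain of 3572 H3K27me3 reads held 24 H3K27ac reads, and both wild types had all 4 marks. Chromosome 7, 86633801 to 86710600, was the widest region of H3K27me3 alone, with 3788 reads over 76.8 kb, and had all 4 marks in WT CD8 and the bivalent pattern in WT CD4. The widest region of all, chromosome 8, 126060201 to 126185000, held 30376 H3K27me3, 1824 H3K27ac and 559 H3K4me3 reads over 124.8 kb, with 2 Tcf1 peaks. There H3K27ac covered 79000 bp and H3K4me3 25400 bp, so these marks were not confined to a small stretch. The H3K27me3 count of this region was the highest of any DKO CD8 island.

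A few compact regions were dense in marks that rarely meet. Chromosome 6, 124829401 to 124839200, carried 2366 H3K27me3, 1688 H3K27ac and 667 H3K9ac reads over 9.8 kb, each mark over at least 9200 bp, without H3K4me3. WT CD8 had H3K27ac with H3K27me3 there, and WT CD4 had all 4 marks. Chromosome 17, 3075201 to 3085600, carried 856 H3K4me3, 1087 H3K27ac, 944 H3K9ac and 1032 H3K27me3 reads over 10.4 kb and had the full active set in WT CD8 and all 4 marks in WT CD4. Neither met the definition of a high-signal place, and sequence repeats at these positions were not analysed here.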
